A study of Mus musculus with 9 samples.

Results

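The 2′,5′-oligoadenylate synthetases (Oas) are enzymes that detect double-stranded RNA and make short 2′,5′-linked chains of adenylate, called 2-5A. Oas genes are classical interferon-stimulated genes, transcribed when a complex that holds Stat2 and Irf9 binds the interferon-stimulated response element (ISRE) in their promoters. In mice the Oas1 gene has been duplicated several times, and the copies differ in whether they still make 2-5A.

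Here 8 genes of this family were followed in primary renal tubular epithelial cells, which are epithelial cells cultured from the kidney of C57BL/6 mice. They were Oas1a, Oas1b, Oas1c, Oas1g, Oas2, Oas3, Oasl1 and Oasl2, matched by symbol, and all 8 were found among the 31167 genes of the expression table. RNA sequencing had been done on 9 libraries in 3 groups of 3. Sham was the negative control. H/R cells were kept in glucose-free medium at 1.0% oxygen for 6 h and returned to complete medium for 18 h of reoxygenation. EGR1OV cells were transfected with an Egr1 overexpression plasmid, which per the study's methods carries a CMV promoter, active in most cell types. No group that received a plasmid without Egr1 is among these groups, so the effects of Egr1, of plasmid DNA and of the transfection reagent cannot be told apart. The study describes Sham cells as left without treatment, whereas the treatment text of the labels, which is the same for all samples, names a transfection reagent. The study's methods describe plasmid transfection as a step before H/R, while its figure legend lists H/R and the plasmid as separate treatments. Whether the EGR1OV cells also went through H/R is thus not settled by these sources. The time from transfection to harvest of the EGR1OV cells, and the age and number of the mice, are not stated either. The labels do not say that the libraries of a group came from separate cultures or animals, so p-values measure the spread between these libraries, which may be technical.

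Levels are in FPKM, fragments scaled to gene length and to the fragments of the library, which allows levels of different genes to be compared. Libraries held 16183615 to 18384021 recovered reads, so 1 library was at most 1.14 times as deep as another. Egr1 was at 6.20, 6.91 and 6.09 FPKM in Sham, 8.57, 7.59 and 7.48 in H/R and 45.7, 42.2 and 40.1 in EGR1OV. Egr1 RNA was thus higher in each EGR1OV library than in any other library. Reads from the plasmid and from the cells' own Egr1 gene were not told apart. Of the tubule markers, Epcam (76.2 ± 0.881 FPKM in Sham, SD, n = 3), Cdh1 (86.2 ± 0.247) and Pax8 (13.1 ± 0.279) were present, while Umod was listed at 0 in all 9 libraries and Slc34a1, a transporter of the differentiated proximal tubule, was under 0.5 FPKM in all 9. Gm23935, a gene whose signal varied widely between libraries of a group, ran from 1494 to 21700 FPKM. A fit with its level as a covariate is among the alternatives.

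All 8 genes lie on chromosome 5 in a pair of clusters. Coordinates are those of the expression table, and they equal GRCm38 (GENCODE M21) for 94.6% of its genes. Oasl2 (chr5:114896936-114912234, plus strand) and Oasl1 (chr5:114923240-114937915, plus strand) form the first cluster. The second cluster holds, in order, Oas2 (chr5:120730333-120749853, minus strand), Oas3 (chr5:120753098-120777661, minus), Oas1c (chr5:120800194-120812514, minus), Oas1b (chr5:120812635-120824163, plus), Oas1g (chr5:120876142-120887613, minus) and Oas1a (chr5:120896256-120907521, minus). The annotation classes 7 of the 8 as protein-coding. Oas1b is classed as a polymorphic pseudogene, because its reading frame in C57BL/6 holds a premature stop codon while that of some other strains is complete.

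The promoter sequences are shown because these genes rose together in EGR1OV, as described below. RefSeq promoter windows (GRCm38.p6, 250 bases before to 50 after the transcription start) were at hand for 6 of the 8 genes, Oas1a, Oas1c, Oas1g, Oas3, Oasl1 and Oasl2. The core of the ISRE was searched on both strands as GAAANNGAAA, where N is any base. It was found in the windows of Oas1a, Oas1c, Oas1g and Oas3, 4 of the 6, against 3.443% of all 32851 windows. The Egr1 binding core was searched on both strands as GCGTGGGCG or GCGGGGGCG and was found in 0 of the 6 windows, against 3.467% of all windows. With so few windows, 0 of 6 lies near that share, and an overlap of the 2 motifs could not be examined. The ISRE matches of Oas1a, Oas1c and Oas1g are copies of the same box, as described below, and do not count as separate matches. A match is a description of these letters only, and the absence of a match says nothing of binding elsewhere.

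The stretches with an ISRE core are printed 5′ to 3′ with the matched bases in capitals. The Oas1a stretch is chr5:120907526-120907625 (minus strand), the Oas1g stretch chr5:120887614-120887713 (minus strand), the stretch between the starts of Oas1c and Oas1b chr5:120812515-120812634 (plus strand, the direction of Oas1b) and the Oas3 stretch chr5:120777660-120777759 (minus strand).
Oas1a: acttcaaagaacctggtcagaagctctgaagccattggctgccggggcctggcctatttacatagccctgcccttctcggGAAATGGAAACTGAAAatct
Oas1g: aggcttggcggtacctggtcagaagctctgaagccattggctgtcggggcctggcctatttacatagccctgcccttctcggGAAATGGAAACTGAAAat
Between Oas1c and Oas1b: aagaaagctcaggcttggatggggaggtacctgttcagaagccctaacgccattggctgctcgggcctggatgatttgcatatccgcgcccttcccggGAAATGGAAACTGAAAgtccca
Oas3: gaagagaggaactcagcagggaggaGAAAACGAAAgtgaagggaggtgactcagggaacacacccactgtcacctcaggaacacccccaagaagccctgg

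The same box of 16 bases, GAAATGGAAACTGAAA, which holds a pair of overlapping ISRE cores, stood at the starts of Oas1a and Oas1g and between Oas1c and Oas1b. It ended 5 bases before the RefSeq start of Oas1a and 3 bases before that of Oas1g. The annotated starts of Oas1c and Oas1b face away from each other and are 121 bases apart. The box between them ended 7 bases before the start of Oas1b and lay 99 bases from the start of Oas1c. This box occurred in 7 of the 32851 windows, which belonged to Oas1a, Oas1c, Oas1g, Apol9a and Apol9b. The longest identical run of the Oas1a and Oas1g windows was 73 bases. In Oas3 the box was GAAAACGAAA, and it ended 66 bases before the start.

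In Sham cells the Oas family was expressed at a low level. Oas1a, which encodes an active synthetase, was at 1.74, 1.98 and 1.12 FPKM. Oasl2, which encodes a synthetase joined to ubiquitin-like domains, was at 0.687, 1.18 and 0.608 FPKM. Oas1c was at 0.733, 0.668 and 0.705, Oasl1 at 0.746, 0.836 and 0.465 and Oas1b at 0.611, 0.720 and 0.639 FPKM. Among these 5, genes next to each other in the order of mean level overlapped in their libraries. Oas1g, a further active synthetase of the Oas1 group, was lower than these 5 in every Sham library, with 0.208, 0.245 and 0.155 FPKM from 6 to 10 reads. Oas2 and Oas3, which carry repeated synthetase units, were at the edge of detection. Oas2 had 4, 10 and 3 reads and Oas3 had 7, 6 and 3 reads in the Sham libraries, and their FPKM ranges overlapped.

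In EGR1OV cells all 8 genes were higher than in every Sham library, with mean levels from 4.54 FPKM for Oas1c to 118 for Oas1a. Oas1a reached 117, 116 and 120 FPKM, a mean of 118 ± 2.31 (SD, n = 3) against 1.61 ± 0.441 in Sham. Oasl1, which has no synthetase activity and is known to bind the messenger RNA of Irf7, reached 97.0, 91.3 and 89.1 FPKM (92.5 ± 4.08 against 0.682 ± 0.194). Oasl2 reached 71.6, 75.6 and 73.3 FPKM (73.5 ± 2.01 against 0.825 ± 0.309). These 3 genes did not overlap each other in EGR1OV, so the order Oas1a, Oasl1, Oasl2 held in every pair of libraries.

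Oas1b and Oas1g reached an intermediate level. Oas1b was at 27.4, 29.0 and 26.7 FPKM (27.7 ± 1.17 against 0.656 ± 0.0567 in Sham, SD, n = 3). Oas1g was at 26.4, 26.5 and 27.5 FPKM (26.8 ± 0.597 against 0.203 ± 0.0451). The ranges of Oas1b and Oas1g in EGR1OV overlapped, whereas in Sham Oas1b was above Oas1g in each library. The level of Oas1b is that of its RNA, since the C57BL/6 reading frame is interrupted.

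The large synthetases Oas2 and Oas3 had the fewest reads in Sham. Oas3 went from 7, 6 and 3 reads in Sham to 2072, 2101 and 2145 reads in EGR1OV. Its level was 17.6, 18.2 and 18.0 FPKM (18.0 ± 0.276, SD, n = 3). Oas2 went from 4, 10 and 3 reads to 798, 857 and 827 reads, or 10.8, 11.8 and 11.0 FPKM (11.2 ± 0.513). The summed reads, scaled by depth, were 400 times those of Sham for Oas3 (95% interval 246 to 700) and 148 times for Oas2 (92.1 to 254). These intervals are exact for the pooled reads and cover counting error only, since the spread between libraries does not enter them. The study describes no molecular identifiers, so copies of a molecule may count as separate reads and the intervals may be too narrow. Their width comes from the 16 and 17 reads that Oas3 and Oas2 had in the 3 Sham libraries together. The ratio of Oas2 was 235 without Sham replicate 2, which held 10 of its 17 reads, and 130 and 121 without Sham replicates 1 and 3. That of Oas3 was 331 to 479 with a library left out.

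Oas1c, a member of the Oas1 group that is regarded as lacking synthetase activity, rose least. It was at 4.98, 3.71 and 4.92 FPKM in EGR1OV (4.54 ± 0.714, SD, n = 3) against 0.702 ± 0.0329 in Sham. Its reads were 6.48 times those of Sham (95% interval 5.15 to 8.24). The next lowest ratio was that of Oas1b, 42.1 (33.0 to 54.6), followed by Oas1a at 72.5 (61.8 to 85.6), Oasl2 at 88.4 (78.3 to 100), Oas1g at 132 (88.4 to 206) and Oasl1 at 135 (110 to 168). The interval of Oas1c lay below those of the other 7 genes. The intervals of Oas2, Oasl1 and Oas1g overlapped, and that of Oasl2 overlapped those of Oas1a, Oas1g and Oas2. Genes with overlapping intervals had no settled order by reads. The interval of Oas3 overlapped only that of Oas2. None of these intervals holds the spread between libraries.

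**Figure D1:**
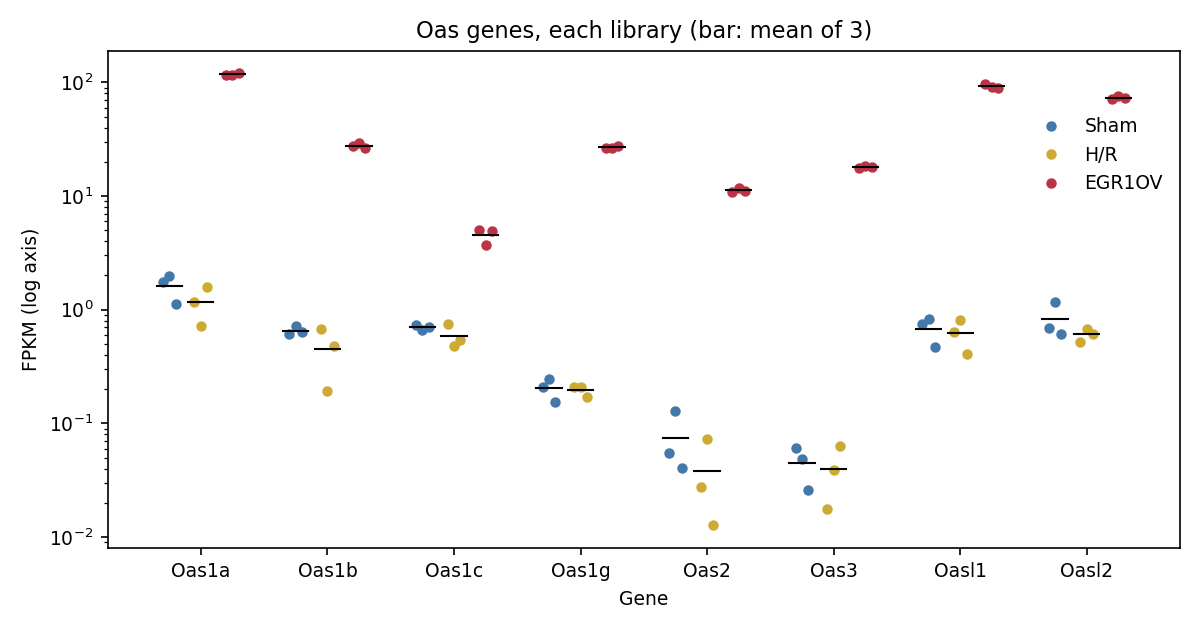
FPKM of the 8 Oas genes in each library (points, log axis), with the mean of the 3 libraries of a group as a bar. The EGR1OV libraries stand above all Sham and H/R libraries for each gene, from 4.54 FPKM on average for Oas1c to 118 for Oas1a. The Sham and H/R libraries overlap for the 8 Oas genes. Of all tested genes 31% lay above Sham in EGR1OV without overlap and 36.6% above H/R. The share that overlaps between Sham and H/R was not determined.

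The test across all genes was limma on log2(FPKM + 1), with 13985 genes at a mean of at least 0.5 FPKM. A gene was called at a Benjamini-Hochberg adjusted p under 0.05 and at least 1.3-fold for EGR1OV. For EGR1OV against Sham, all 8 genes were called higher, where 9.87% of all tested genes were called higher. The 3 EGR1OV libraries lay above the 3 Sham libraries for 8 of 8 genes, against 31% of all tested genes. An exact permutation test, two-sided, gave p 0.1 for each gene, which is the smallest that 3 against 3 allows. The filter bears on these counts, because Oas1g, Oas2 and Oas3 had a mean under 0.5 FPKM over Sham and H/R and passed only through EGR1OV. The other 5 passed on the Sham and H/R libraries alone.

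On that scale Oasl1 changed most, by 5.80 (SE 0.104, limma adjusted p 1.86e-10). Oas1a changed by 5.52 (SE 0.152, limma adjusted p 3.62e-09) and Oasl2 by 5.36 (SE 0.101, limma adjusted p 2.59e-10). The changes were 4.53 for Oas1g, 4.18 for Oas3, 4.11 for Oas1b and 3.51 for Oas2. Oas1c changed by 1.69 (SE 0.103, limma adjusted p 1.15e-06), and the adjusted p of the other 7 genes was at most 3.62e-09. The median of the 8 was 4.36, and that of all tested genes was 0.0172. Addition of 1 before the logarithm understates the change of genes that start near 0, and so the order differs from that by reads, in which Oas3 had the largest ratio. A change of 10-fold or more on this scale, a limit chosen after the values were seen, was reached by 7 of the 8 genes and by 0.515% of all tested genes.

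After H/R none of the 8 genes was called, at a threshold of 1.2-fold, where 4.25% of all tested genes were called in either direction. By limma 0 of the 8 also had an unadjusted p under 0.05, and by limma voom on recovered reads, a test added after the data were examined, 0 of the 8 did. By limma the count was 2 without Sham replicate 3, 1 without H/R replicate 1 and 1 without H/R replicate 3, with 0 of the 8 at an adjusted p under 0.05 in each. Oas1a was at 1.18, 0.721 and 1.59 FPKM after H/R (1.16 ± 0.432, SD, n = 3), a range that overlaps that of Sham. Oasl2 was at 0.523, 0.683 and 0.610 FPKM (0.606 ± 0.0797). Oas1b was at 0.682, 0.191 and 0.481 FPKM, and its low second library rests on 7 reads. Oas1c was at 0.745, 0.475 and 0.539, Oasl1 at 0.640, 0.813 and 0.411 and Oas1g at 0.211, 0.209 and 0.169 FPKM. Oas2 had 2, 6 and 1 reads and Oas3 had 2, 5 and 8. The Sham and H/R libraries overlapped for each of the 8 genes. The share of all tested genes with such overlap was not determined, so this is a description only.

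The changes after H/R were small and all below 0, from -0.28 for Oas1a to -0.0070 for Oas3 on the log2(FPKM + 1) scale, with limma adjusted p between 0.257 and 0.951. Of all tested genes 59.9% were below 0, and the median of the 8 was -0.0796 against -0.0298 for all tested genes. The reads of Oas1a after H/R were 0.713 times those of Sham (95% interval 0.555 to 0.914), those of Oas1b 0.671 times (0.450 to 0.993) and those of Oasl2 0.732 times (0.607 to 0.882). Those intervals hold counting error alone and leave out the spread between libraries, which the limma test includes. For the other 5 genes the interval included 1. For Oas2 it ran from 0.20 to 1.21, so its few reads do not settle a ratio within that range. The sign was not stable for every gene. It turned for Oas1g, Oas3 and Oasl1 when single libraries were left out, with values up to 0.04.

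EGR1OV was also set against H/R, which shows the same EGR1OV libraries beside a second reference. All 8 genes were called higher, where 11.9% of all tested genes were, and the libraries did not overlap for 8 of 8 genes, against 36.6% of all tested genes. The difference was 5.86 for Oasl1 (SE 0.104, limma adjusted p 1.79e-10), 5.80 for Oas1a and 5.54 for Oasl2. It was 4.54 for Oas1g, 4.32 for Oas1b, 4.19 for Oas3, 3.56 for Oas2 and 1.80 for Oas1c. Both comparisons use the same EGR1OV libraries and are not independent of each other.

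**Figure D2:**
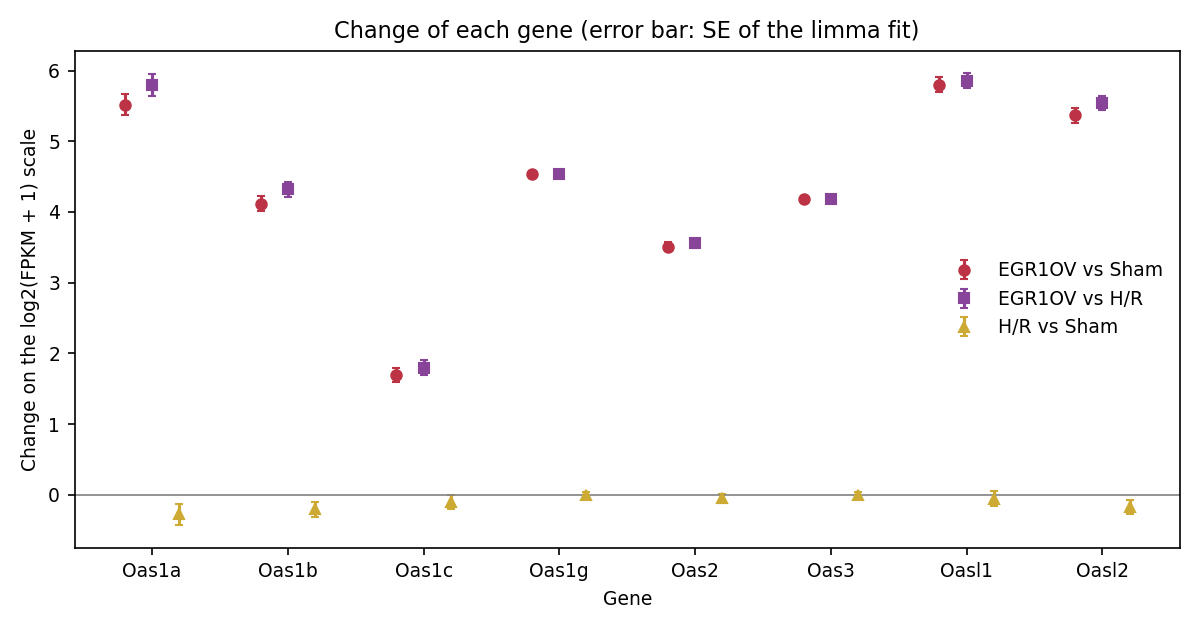
Change of the 8 Oas genes on the log2(FPKM + 1) scale for the 3 comparisons, with the SE of the limma fit as error bars. Oasl1, Oas1a and Oasl2 changed most in EGR1OV, Oas1c least of the 8, and the changes after H/R lie between -0.28 and -0.0070 for the 8 genes.

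The make-up of the family shifted while the total rose. The FPKM of the 8 genes summed to 4.84, 5.80 and 3.76 in Sham, 4.03, 3.20 and 3.87 in H/R and 373, 372 and 371 in EGR1OV. Oas1a held 33.3% ± 3.12 of this sum in Sham and 31.6% ± 0.689 in EGR1OV (SD, n = 3 each), with overlapping libraries. In H/R its share varied more, with 29.3%, 22.5% and 40.9%. Oas1c fell from 15.1% ± 3.62 to 1.22% ± 0.192 and Oas1b went from 14.0% ± 2.58 to 7.45% ± 0.308. Oasl1 went from 14.1% ± 1.56 to 24.9% ± 1.04 and Oas1g from 4.22% ± 0.0836 to 7.21% ± 0.178. In H/R Oas1c held 15.7% ± 2.42, Oas1b 11.8% ± 5.52, Oas1g 5.38% ± 1.09 and Oasl1 17.3% ± 7.49, where the second library of Oasl1 was at 25.4%, within its range in EGR1OV. The large synthetases together remained a small part. Oas2 held 1.48% ± 0.644 in Sham and 3.01% ± 0.139 in EGR1OV, and Oas3 held 0.922% ± 0.289 and 4.83% ± 0.0823. The shares are given as a description with no test, and a share can fall while the level rises, as it did for Oas1c and Oas1b.

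**Figure D3:**
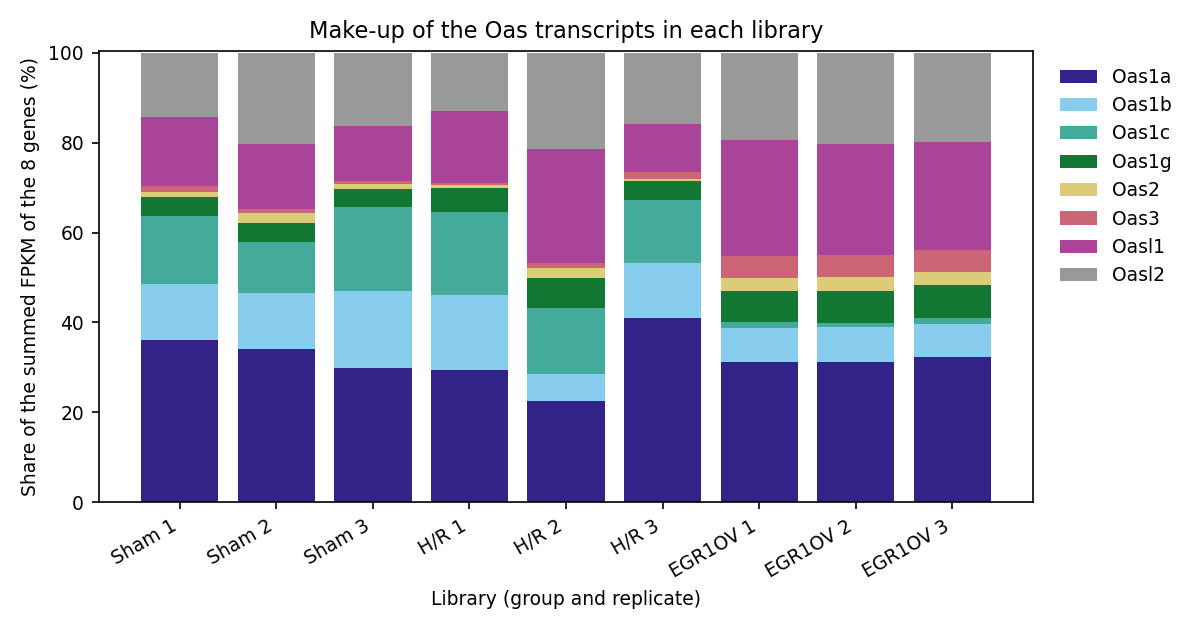
Share of each gene in the summed FPKM of the 8 Oas genes, in percent, for each of the 9 libraries (stacked bars). Oas1c narrows from 15.1% on average in Sham to 1.22% in EGR1OV, Oasl1 widens from 14.1% to 24.9%, and Oas1a holds 33.3% and 31.6%. The H/R libraries vary more, with Oas1a from 22.5% to 40.9% and Oasl1 from 10.6% to 25.4%.

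Ratios between neighbouring genes, and between near-identical copies, were set side by side across the groups. Oas1c and Oas1b start 121 bases apart with the box of 16 bases between them. The level of Oas1c was 120%, 92.8% and 110% of that of Oas1b in the Sham libraries and 18.2%, 12.8% and 18.4% in the EGR1OV libraries. The groups did not overlap, with means of 108% ± 13.9 and 16.5% ± 3.17 (SD, n = 3 each), and an exact permutation test, two-sided, gave p 0.1. In H/R the ratio was 109%, 248% and 112%, and the high second value rests on the 7 reads of Oas1b in that library. Oas1g was at 11.9%, 12.4% and 13.8% of Oas1a in Sham and at 22.6%, 22.9% and 22.9% in EGR1OV (exact two-sided permutation p 0.1). In H/R it was 17.9%, 29.0% and 10.6% and overlapped both other groups. Oasl2 was at 92.1%, 141% and 131% of Oasl1 in Sham and at 73.8%, 82.8% and 82.2% in EGR1OV (exact two-sided permutation p 0.1). In H/R it was 81.8%, 83.9% and 149% and overlapped both other groups, with an exact two-sided permutation p of 0.3 against EGR1OV.

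The split between Oas1a and Oas1g is uncertain, because the transcripts share long stretches. Of the stretches of 100 bases in the annotated transcripts, 40.87% of those of Oas1a and 31.25% of those of Oas1g were identical to a stretch of the other gene. How the authors' counting assigned such reads is not given in the sources used here. For Oas1c the share was 4.23%, with the antisense RNA Gm43069, which overlaps it. For Oas1b, Oas2, Oas3, Oasl1 and Oasl2 it was 0 at this length. At 50 bases the shares were 57.57% for Oas1a, 45.72% for Oas1g, 15.12% for Oas1c and 2.98% for Oas1b, and at most 0.52% for the other 4 genes. The read length is not given in the sources used here. Whether the counting used strand is not stated either, so reads of Oas1c and Gm43069, and of Oasl1 and its antisense neighbour Gm13822, cannot be told apart where they overlap. Gm13822 had 4, 3 and 9 reads in EGR1OV and Oasl1 had 4203, 3892 and 3912.

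The other genes of the Oas1 group had few reads, and none of the 4 entered the test. Oas1h was higher in each EGR1OV library than in any Sham or H/R library. It had 1, 1 and 0 reads in Sham, 1, 0 and 0 in H/R and 10, 28 and 15 in EGR1OV, or 0.628 ± 0.338 FPKM (SD, n = 3), close to the 0.656 of Oas1b in Sham. Its reads were 26.8 times those of Sham, with a wide interval of 7.07 to 227 because Sham held 2 reads (exact two-sided permutation p 0.1). Oas1e had 4, 3 and 1 reads in EGR1OV, 0 in Sham and 2 reads in a single H/R library. Oas1d, known from the ovary, had 5 reads in a single EGR1OV library and 0 elsewhere. Oas1f had 0 reads in all 9 libraries, where a count of 0 allows up to 3 reads per library.

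Of 26 other genes within 100 kb of an Oas gene, 5 entered the test and 1 was called higher in EGR1OV than in Sham. Of all tested genes 9.87% were called higher and 6.51% lower, so 1 of 5 is not set apart from these shares. The 5 tested neighbours all lie by Oasl2 or Oasl1, so no neighbour of the second cluster was tested. 2210016L21Rik, which begins 4243 bases beyond Oasl1, went from 9.62 ± 0.473 to 12.9 ± 0.623 FPKM (SD, n = 3 each), a change of 0.39 (SE 0.057, limma adjusted p 0.000452). That value lies at the 1.3-fold threshold and was under it after median-ratio scaling (0.36), after quantile normalization (0.29), without Sham replicate 3 (0.35) and without EGR1OV replicate 2 (0.35). Sppl3, a membrane protease gene 73222 bases from Oasl1, had a change of -0.20 (limma adjusted p 0.00362) and was not called. Ankrd13a, 1500011B03Rik and 2610524H06Rik had changes of 0.07, 0.02 and -0.11. The genes that flank the second cluster, Dtx1 at 18406 bases from Oas2 and Rph3a at 32978 bases from Oas1a, were under 0.5 FPKM on average in each group. The nearest tested gene before Oasl2 was 2610524H06Rik at 73468 bases, and the nearest of any kind was 4930519G04Rik at 13056 bases, listed at 0 in all Sham and H/R libraries.

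**Figure D4:**
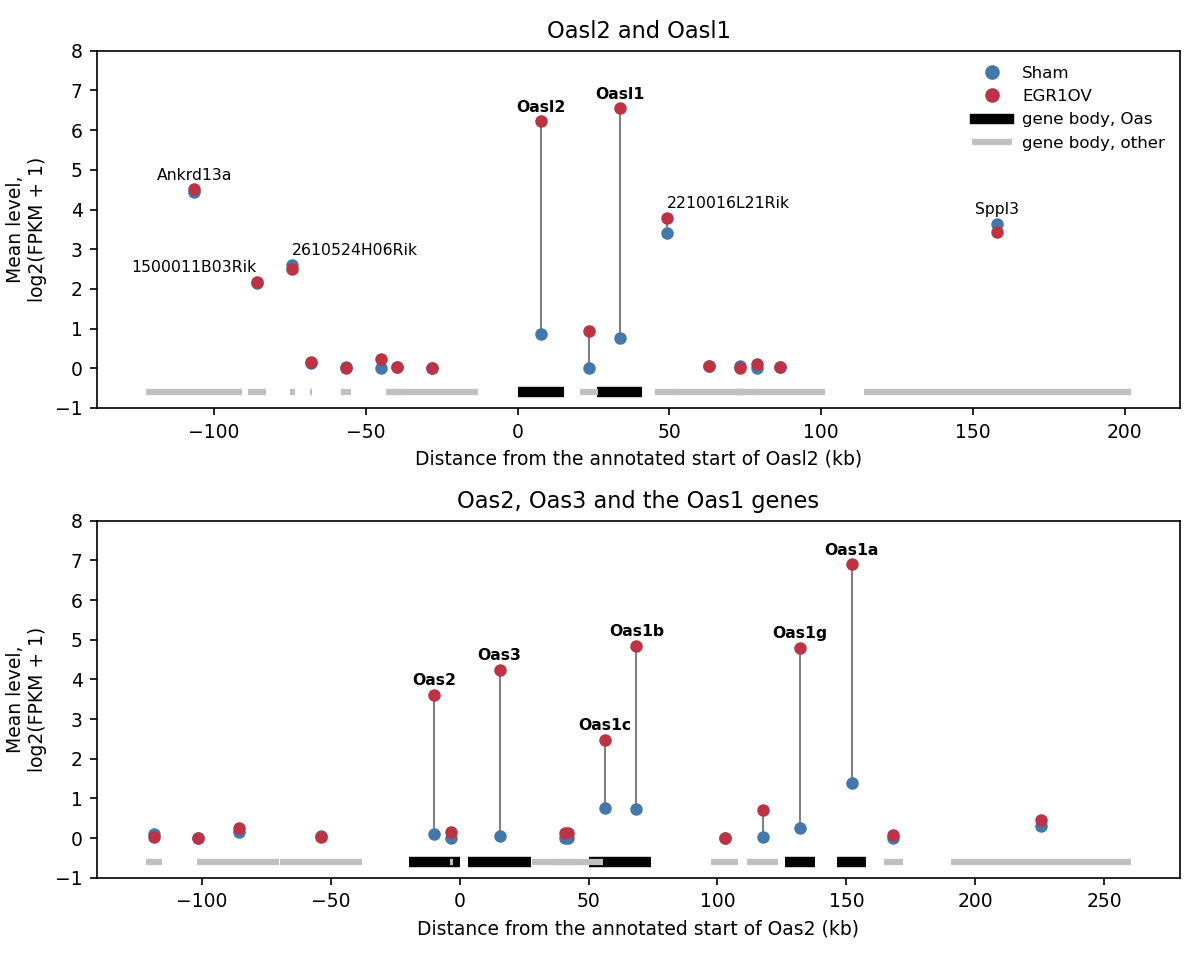
Mean level in Sham and EGR1OV, log2(FPKM + 1), of each Oas gene and of each other gene within 100 kb, against the distance in kb from the annotated start of Oasl2 or Oas2. Grey lines join the groups, and bars at the bottom mark gene bodies. By Oasl2 and Oasl1, 1 of the 5 other genes that entered the test, 2210016L21Rik, was called higher, against 9.87% of all tested genes. By the second cluster no other gene entered the test, and Oas1h there went from 2 to 53 reads.

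A list of 4 genes tied to the 2-5A pathway, including enzymes that remove 2-5A, held no gene that was called in either comparison with Sham. Abce1, an ATPase that recycles ribosomes, was at 37.6 ± 1.18 FPKM in Sham and 34.4 ± 0.893 in EGR1OV (SD, n = 3 each), a change of -0.12 (limma adjusted p 0.00836) under the 1.3-fold threshold. Pde12, a phosphodiesterase that degrades 2-5A, was at 4.50 ± 0.106 and 4.75 ± 0.0353 FPKM. Akap7, whose product is known to cleave 2-5A, was at 2.32 ± 0.152 and 2.08 ± 0.124 FPKM. Enpp1, an ectonucleotidase, was at 0.444 ± 0.0631 and 0.433 ± 0.0380 FPKM. In EGR1OV 0 of 4 were called by limma, where 9.87% of all tested genes were called higher and 6.51% lower. Of the 4, 1, Abce1, had an unadjusted p under 0.05. The median change of the 4 was -0.0593 beside 0.0172 for all tested genes. After H/R 0 of 4 were called by limma, against 4.25% of all tested genes. In a list this short, counts of 0 lie near these shares. Of the 4, 1 had an unadjusted p under 0.05 after H/R, and limma voom on recovered reads called 1. That gene was Enpp1 in both cases, named after its values were seen, at 0.667 ± 0.0637 FPKM after H/R (SD, n = 3).

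Other receptors of foreign nucleic acid formed a list of 10 genes, of which 8 were called higher in EGR1OV and none was called lower. Of all tested genes 9.87% were called higher and 6.51% lower. The median change of the list was 2.22. Zbp1, a sensor of Z-form nucleic acid, went from 0.180 ± 0.0380 to 25.7 ± 1.25 FPKM (SD, n = 3 each), a change of 4.50. Dhx58 changed by 4.26, Ifih1, the long double-stranded RNA sensor Mda5, by 3.17 and Ddx58, the sensor Rig-I, by 2.75. Tlr3, the endosomal receptor of double-stranded RNA, changed by 2.30, the RNA-activated kinase Eif2ak2 by 2.15, the RNA-editing enzyme Adar by 2.08 and Mb21d1, the DNA sensor cGAS, by 0.63. The limma adjusted p of these 8 was at most 0.00023. Zbp1 and Dhx58 averaged 0.136 and 0.333 FPKM over Sham and H/R and passed the filter only through EGR1OV. Their calls as higher are tied to that entry and add no support to the count. Mavs and Tmem173 (Sting), the adaptors of the RNA and DNA sensors, had changes of 0.11 and 0.32 and were not called. After H/R 0 of the 10 were called by limma, against 4.25% of all tested genes, and 1 had an unadjusted p under 0.05.

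The genes of interferon signalling upstream of Oas formed a list of 14, of which 12 entered the test. In EGR1OV 8 were called higher and none lower, against 9.87% and 6.51% of all tested genes. Ifnb1, which encodes interferon beta, was listed at 0 in all 6 Sham and H/R libraries and was at 3.05, 3.02 and 1.90 FPKM in EGR1OV, from 38, 37 and 24 reads. It passed the filter only through EGR1OV, so its call as higher is tied to that entry and adds no support to the count. Ifnl2 and Ifnl3, the genes of interferon lambda, had at most 1 read in a library and did not enter the test. Of the complex that binds the ISRE, Stat2 changed by 4.08 and Irf9 by 2.17. Irf7, a driver of interferon transcription, went from 0.823 ± 0.185 to 223 ± 5.07 FPKM (SD, n = 3 each), a change of 6.95, and Irf1 changed by 1.65. Smaller changes were called for Tyk2 (0.63), Ifnlr1 (0.56) and Ifnar2 (0.39), a kinase and receptor chains of interferon. That of Ifnar2 lay at the threshold and was under it after median-ratio scaling (0.36), after quantile normalization (0.28), without Sham replicate 2 (0.35) and without EGR1OV replicate 1 (0.35). Jak1 (0.23), Irf3 (0.19), Il10rb (0.04) and Ifnar1 (-0.10) were not called. The median change of the 12 was 0.592. After H/R 0 of the 12 were called by limma, against 4.25% of all tested genes. Of the 12, 2 had an unadjusted p under 0.05, and limma voom on recovered reads called 1. The genes with a low unadjusted p, named after their values were seen, were Ifnar1, with a change of 0.12, and Irf9, with -0.287. Their limma adjusted p was 0.0506 and 0.0678. Irf9 was at 3.29 ± 0.224 FPKM after H/R and 4.27 ± 0.761 in Sham (SD, n = 3 each), without overlap.

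**Figure D5:**
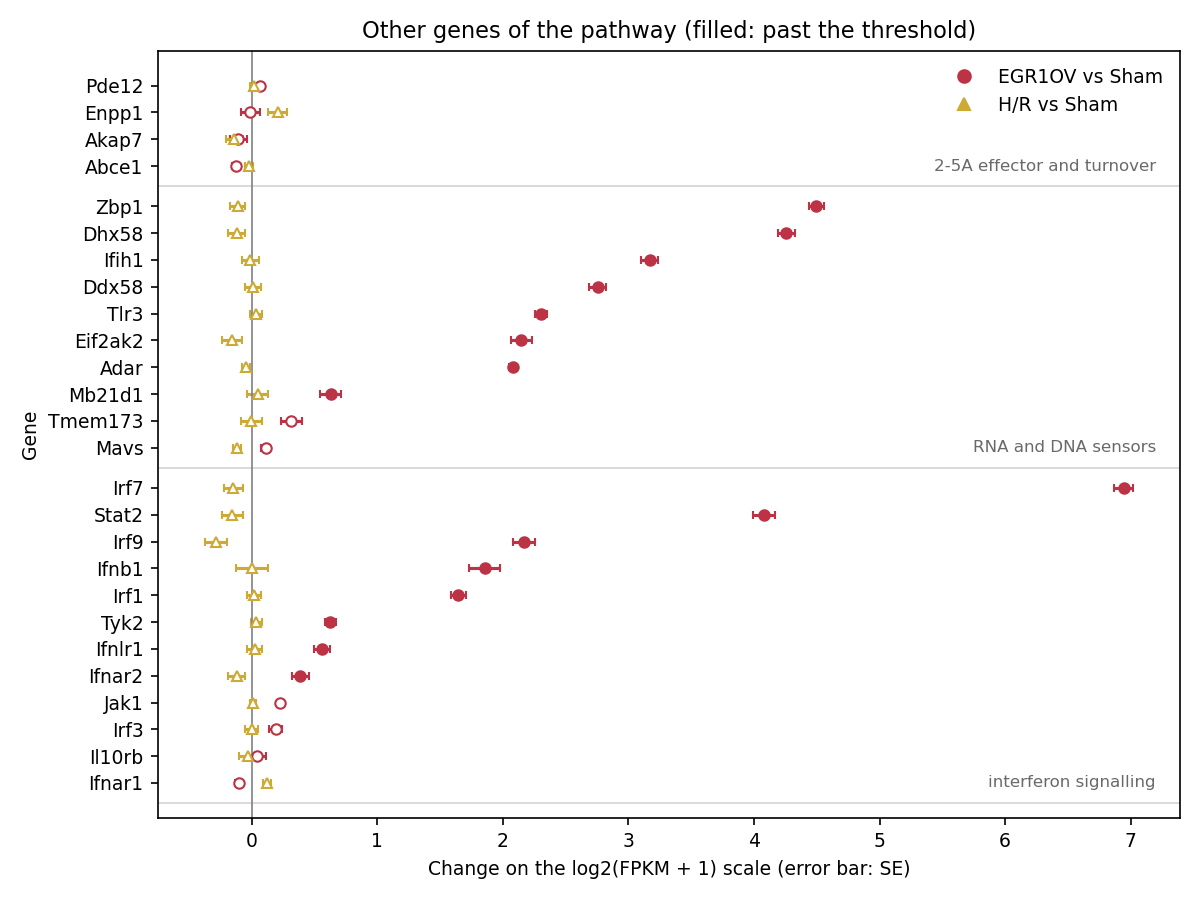
Change on the log2(FPKM + 1) scale, with the SE of the limma fit, of the genes of the 3 pathway lists that entered the test, for EGR1OV (circles) and H/R (triangles) against Sham. Filled symbols are past the threshold, which holds for 0 of 4, 8 of 10 and 8 of 12 genes in EGR1OV and for 0 genes after H/R. Of all tested genes 9.87% were called higher and 6.51% lower in EGR1OV, and 4.25% were called after H/R. Zbp1, Dhx58 and Ifnb1 passed the filter on low values only through EGR1OV.

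The genes whose pattern was most like that of the family were found by Pearson correlation with the mean log2(FPKM + 1) of the 8 genes over the 9 libraries. They were Ifit3, Irf7, Gm4951 and Ddx60, each with r of 0.9998, and Parp12 with 0.9997. Ifit3 went from 4.30 ± 0.121 FPKM in Sham to 628 ± 8.19 in EGR1OV (SD, n = 3 each), and Parp12 from 7.99 ± 0.535 to 74.3 ± 1.06. These correlations are a description, since 9 libraries in 3 groups with EGR1OV far from the others give high values to many genes, and 298 genes had r of 0.99 or more. Of the 8 Oas genes, Oas1g lay closest to their mean (0.9996) and Oas1c farthest (0.9912).

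Markers of other cell types were also read in the 3 groups. Of 13 leukocyte markers, 12 were in the table and 9 entered the test, and all 9 were called lower in EGR1OV than in Sham, where 6.51% of all tested genes were called lower. After H/R 2 of the 9 were, against 2.65% of all tested genes. Their summed level was 154 to 160 FPKM in Sham, 130 to 140 in H/R and 28.1 to 33.4 in EGR1OV, so that the Oas genes were high where these markers were low. Lyz2 went from 57.7 ± 1.62 to 5.46 ± 0.588 FPKM (SD, n = 3 each) and C1qa from 31.1 ± 1.22 to 4.50 ± 0.279. Siglech, the defining marker of plasmacytoid dendritic cells, was at 0 in all 9 libraries. Of the list of 3 for these cells, Bst2, itself an interferon-stimulated gene, rose, and the sum was 42.4 to 53.9 FPKM in Sham, 42.5 to 45.7 in H/R and 827 to 890 in EGR1OV. The sum of the tubule markers was 1890 to 1930 FPKM in Sham, 1750 to 1830 in H/R and 1230 to 1340 in EGR1OV, where Krt8, Krt18 and Lrp2 were called lower and Epcam higher. Of 5 endothelial markers 1 was called lower in EGR1OV (sums of 9.21 to 9.67, 9.41 to 9.77 and 6.52 to 7.18 FPKM). Of 7 fibroblast markers 1 was called higher in EGR1OV (32.8 to 34.5, 39.3 to 40.6 and 37.9 to 42.9 FPKM). After H/R Epcam was called higher too, at 96.0 ± 1.3 FPKM (SD, n = 3), and no other tubule marker was called. The change of Epcam between H/R and EGR1OV was 0.0627 and was not called. Also after H/R, 2 fibroblast markers, Col1a1 and Col1a2, were called higher and no endothelial marker was called. Of all tested genes 4.25% were called after H/R in either direction. In bulk RNA fewer cells of a type and less RNA per cell cannot be told apart, and the part of cell make-up in the Oas values was not tested.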

How the data were processed

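RNA of mouse primary renal tubular epithelial cells was measured in 9 libraries, which the sample titles assign to groups and number within them. The authors deposited gene values as FPKM, in 1 column for each library, without pooling replicates. The submitters' processing notes name Bowtie2 2.2.3, HISAT2 2.1.0, TopHat2 and mm9, with no role or order, whereas gene positions in the table equal GENCODE M21 (GRCm38) for 94.6% of genes. The counter, its strand setting and its rule for reads shared by gene copies are not given in the sources used here. With exon lengths from GENCODE M21, 94.0% of 162962 low values came out as whole reads within 0.02 reads, which gave library depths and the reads of each gene. A floor of 3 reads was used.

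The main test was limma 3.58.1 in R 4.3.3 (lmFit, then eBayes with trend) on log2(FPKM + 1). All 9 libraries entered, the 13985 genes had to average 0.5 FPKM or more, tests were two-sided, and p-values were adjusted over all of these genes by Benjamini-Hochberg. A call needed an adjusted p under 0.05 together with 1.3-fold (EGR1OV) or 1.2-fold (H/R against Sham). The study used these limits against Sham, while the limit between EGR1OV and H/R was set for this work. Adjusted p-values are from this test where no other is named. Ratios of reads have exact binomial 95% intervals. Single genes were compared by exact permutation tests, two-sided. Replicate numbers recur in all groups, so a fit blocked on them was made as an alternative.

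The genes and lists were chosen with earlier results of these data known. Named were the 8 Oas genes, the genes of the pathway lists, neighbours within 100 kb that were called or nearest, the 5 genes most correlated with the 8 and at 5 FPKM or more in a group, and Egr1. Some genes of these lists are not reported here and are left out of the list counts. The other tested neighbours, Gm13822, Gm43069 and the single cell type markers given by name were picked after their values were seen. Promoter sequences came from RefSeq (GRCm38.p6) and transcripts from GENCODE M21. The code was tested on simulated data. Alternatives were another pseudocount (0.1), no filter on low values or a stricter filter (5 FPKM), scaling by median ratios or by quantiles, the block, no trend in limma, fits of the 2 compared groups alone, another fold limit (none or 2-fold) and omission of each library. Chosen after seeing the data were limma voom on recovered reads and a covariate for Gm23935. Tables and figures were made with Python 3.11.15, pandas 2.3.3, scipy 1.17.1 and matplotlib 3.10.9.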

Additional observations from a re-analysis of the deposited data

Results flagged for a closer look

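The following genes were set apart because their change in EGR1OV differed from their change after H/R, by the direct limma test of EGR1OV against H/R over all 9 libraries. Both changes share the Sham libraries, which cancel in this test. Among the Oas genes the log2 difference was 5.80 for Oas1a, 4.32 for Oas1b, 1.80 for Oas1c, 4.54 for Oas1g, 3.56 for Oas2, 4.19 for Oas3, 5.86 for Oasl1 and 5.54 for Oasl2. Each was higher in 3 of 3 EGR1OV libraries than in any H/R library, as were 36.6% of all tested genes. The largest limma adjusted p of the 8 was 7.12e-07, that of Oas1c. These p-values come from the test that set the genes apart, so they add no separate support.

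Among the sensors of foreign nucleic acid the log2 difference was 4.61 for Zbp1, 4.38 for Dhx58, 3.18 for Ifih1, 2.74 for Ddx58, 2.30 for Eif2ak2, 2.27 for Tlr3, 2.13 for Adar and 0.58 for Mb21d1. Among the genes of interferon signalling it was 7.10 for Irf7, 4.24 for Stat2, 2.46 for Irf9, 1.85 for Ifnb1, 1.63 for Irf1, 0.59 for Tyk2, 0.54 for Ifnlr1 and 0.51 for Ifnar2. All 16 had a limma adjusted p of 0.000331 or less, in the same test that set them apart. Zbp1, Dhx58 and Ifnb1 passed the filter on low values only through EGR1OV.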

How the results depend on the processing

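The 8 Oas genes stayed called in EGR1OV against both references under every alternative that tested them, and none was called after H/R under any. A mean of at least 5 FPKM left 6 of the 8 in the test. After H/R the sign of some changes turned. It did so for Oas1g with the Gm23935 covariate (0.00396) and over libraries left out (-0.0359 to 0.0181), for Oas3 over libraries left out (-0.0235 to 0.00866), and for Oasl1 with the covariate (0.00644) and over libraries left out (-0.151 to 0.0424). In EGR1OV quantile normalization turned Pde12 (-0.0106), Mavs (-0.000238), Il10rb (-0.0348), Ankrd13a (-0.0248) and 1500011B03Rik (-0.0515). The last also turned with median-ratio scaling (-0.0053), with the covariate (-0.00259) and over libraries left out (-0.0253 to 0.0768), as did Enpp1 over libraries left out (-0.0343 to 0.0246). None of these was a called change.

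The count of all tested genes moved most with the thresholds. For EGR1OV against Sham, higher, it was 818 with a mean of at least 5 FPKM, 3651 with no fold threshold and 389 at 2-fold. For H/R against Sham it was 372, 1635 and 11, and 1001 by limma voom. For EGR1OV against H/R, higher, it was 984, 4472 and 393, and 1113 after quantile normalization. In the 2-5A list after H/R it was 1 by limma voom. In the interferon signalling list it was 5 at 2-fold in EGR1OV against either reference, and after H/R it was 1 with a mean of at least 5 FPKM and 1 by limma voom. Of the neighbours, 0 were called after median-ratio scaling, after quantile normalization and at 2-fold, 2 with no fold threshold, and 0 to 1 with a library left out. The causes were not tested.

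Whether equal replicate numbers pair the libraries was not settled. Correlations of their deviations were weak, from -0.0206 to 0.0618, and 8 of 18 were best with their own number. The comparisons differed in this. For EGR1OV against Sham each library was best with its own number (0.0283, 0.0618 and 0.0396), and for the others most were not. With the replicate block the count of all tested genes was 1389, 516 and 1674 for the 3 comparisons in the order above, and no call of the Oas genes or lists changed.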
